A study of Rattus norvegicus with 11 samples.

Results

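The thin filament genes of rat heart muscle were followed here through 16 probe sets, which are every probe set of the array annotated to 1 of 8 genes and to no other: the troponins Tnnt2, Tnni3, Tnni1 and Tnnc1, the tropomyosins Tpm1 and Tpm3, and the striated muscle actins Actc1 and Acta1. The 16 were found among 8799 probe sets and stood for 7 of the 8 genes (of 4737 genes named on the array), since no probe set in the annotation used here carried the symbol Tnnc1. Another 4 probe sets were annotated to both Acta2 and Actc1 and are described apart from the members. The genes were measured on 11 Affymetrix arrays hybridised with total RNA of the ventricle. The rats were Fischer-344, an inbred strain common in work on ageing. The old group held 6 arrays from rats of 22 months, and the young group held 5 arrays from rats of 4 months. No treatment, genetic change or sex is given for either group. The labels do not say whether each array came from its own animal, so a p-value here covers no more than the spread among these samples, and that spread may be technical.

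The thin filament is a double strand of actin along which rods of tropomyosin lie, each carrying a troponin complex. Troponin T ties the complex to tropomyosin, troponin I holds the filament in its inhibited state, and troponin C binds the calcium that releases it. The rodent heart changes some of these proteins around birth: the slow skeletal troponin I gene Tnni1 gives way to the cardiac gene Tnni3, and cardiac alpha-actin, from Actc1, comes to outweigh skeletal alpha-actin, from Acta1. Acta1 is among the fetal genes that overloaded heart muscle uses again.

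Intensities are given on the log2 scale, after values under 47.4 were raised to that floor (5.57 on the log2 scale). Differences are old minus young with the standard error (SE) from limma, and adjusted p-values are limma's with Benjamini-Hochberg adjustment over all 5244 probe sets tested, unless another test is named. Of the 16 members, 14 passed the filter on low values and were tested. The 2 others, rc_AI144767_s_at of Tpm1 and L24777_at of Tpm3, lay at the floor on 8 of 11 arrays each. Where probe sets are called bright or dim, or intensities are summed, signal alone is meant. Such levels are not read as transcript amounts, because probes differ in how strongly they bind. The suffixes s and f mark probe sets of this array type that can match more than 1 related transcript.

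The deposited values of the arrays had nearly equal trimmed means, from 500.47 to 500.96 with a trim of 2%. A scaling to a common level before deposit is inferred from this. Bacterial spike-in controls, transcripts added to each sample, split the arrays at their widest gap into a bright class of 5 (old replicates 3 to 6 and young replicate 4, with a mean spike-in signal of 11.97 to 15.24) and a dim class of 6 (9.55 to 10.2). That gap, from 10.2 in young replicate 2 to 11.97 in young replicate 4, was only slightly the widest. Within the bright class the gap from 13.54 in old replicate 3 to 15.24 in old replicate 6 was nearly as wide. All values by class rest on this split, and other splits were not tested. Old replicates 3 and 4 also had a GAPDH 3' over 5' log2 ratio of 3.39 and 4.09, against 0.77 or less on the other arrays. Of the 13 cardiac markers on the array 12 passed the filter, with Myl2, the ventricular light chain, at 15.9 in old and 15.79 in young. Not all were bright: Ryr2, the calcium release channel, read 8.18 and 8.95, and Ttn, the giant protein titin, read 6.65 and 6.75 and was not tested. Atrial markers were also read in these ventricle samples, with Myl7, the atrial light chain, at 13.37 in old and 12.42 in young. Their summed intensity over 4 of 5 listed genes ran from 10863 to 98243 in old and from 4906 to 36807 in young. In bulk tissue, fewer cells of a type and less RNA per cell cannot be told apart.

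No thin filament probe set passed the test for a difference between old and young ventricle. By limma's adjusted p under 0.05, 0 of 14 tested members passed, where 0% of all tested probe sets did (0 of 5244). At an unadjusted limma p under 0.05 there was 1 of 14, beside 7.51% of all tested probe sets, with 1 higher in old (3.39% of all) and 0 lower (4.12% of all). Old and young arrays overlapped for every tested member, while they did not overlap for 0.973% of all tested probe sets. The signs were evenly split, with 7 higher in old, beside 49.4% of all tested probe sets, and 7 lower, and the median difference of the 14 was 0.011 beside -0.010 over all tested probe sets. For 8 of the 14 the difference was smaller than its own SE. The SEs ran from 0.28 to 1.20, with a median of 0.56 over all tested probe sets.

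**Figure D1:**
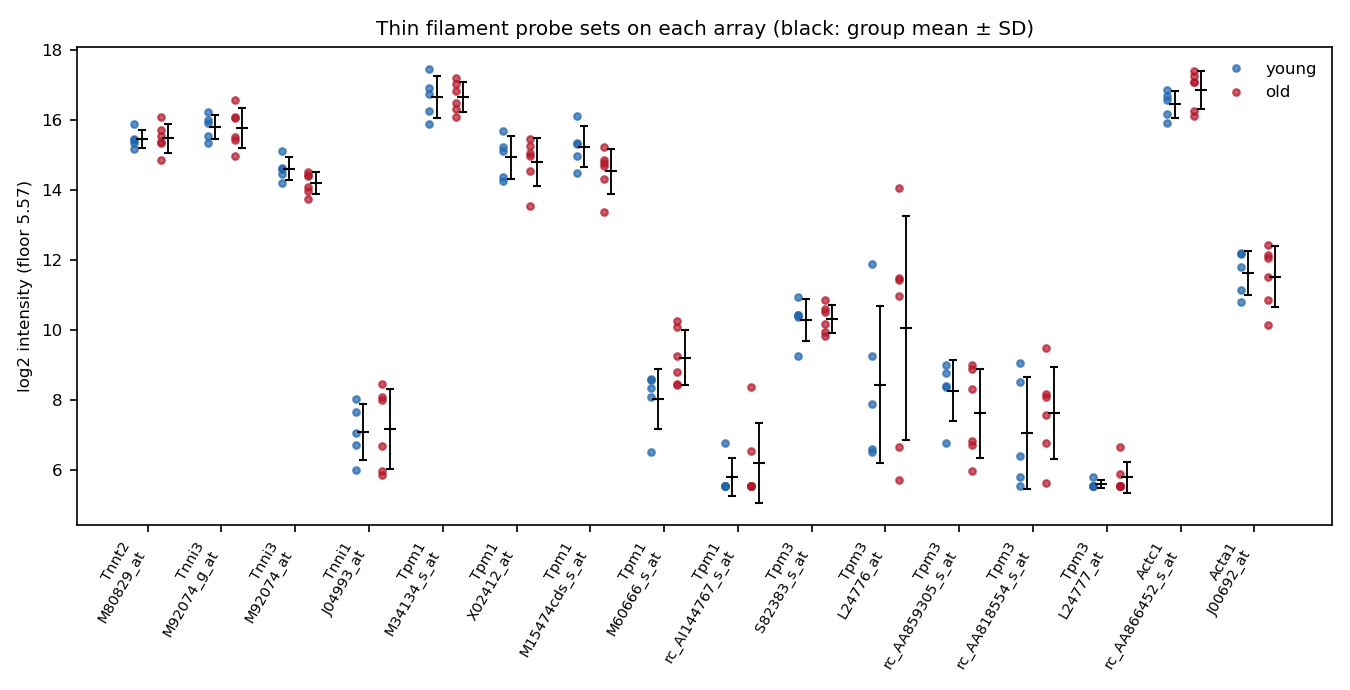
Log2 intensity of the 16 thin filament probe sets on each of the 6 old and 5 young arrays, 1 point per array, with the group mean and SD in black. Old and young points overlap for every tested probe set; the widest spread is that of L24776_at of Tpm3, from 5.71 to 14.05.

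Among the troponins, Tnnt2, the cardiac troponin T that anchors the complex, differed between the ages by far less than the spread of its arrays. Its single probe set, M80829_at, read 15.46, 15.42, 15.87, 15.17 and 15.35 in young replicates 1 to 5, and 14.85 at the lowest, 15.45 at the median and 16.07 at the highest in old. The lowest and the highest of all arrays were both old, so the old arrays enclosed the young ones. The difference was 0.03 ± 0.31 (SE, limma adjusted p = 0.988), with 3 of 6 old arrays above the young mean.

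Tnni3, the cardiac troponin I that protein kinase A phosphorylates during adrenergic stimulation, was read by 2 probe sets made from the same accession. M92074_g_at read 15.55, 15.99, 15.91, 16.21 and 15.34 in young and 14.96 (lowest), 15.77 (median) and 16.57 (highest) in old. The old range again enclosed the young one, and the difference was -0.037 ± 0.34 (SE, limma adjusted p = 0.983). M92074_at read 14.45, 14.21, 15.1, 14.61 and 14.63 in young and 13.74, 14.24 and 14.52 (lowest, median and highest) in old. The young mean exceeded every old array, but young replicates 1 and 2 lay within the old range. Its difference of -0.41 ± 0.28 (SE) did not pass (limma adjusted p = 0.755) and stayed below 0 in all 26 alternatives that gave a value, from -0.70 to -0.18. Array by array, the values of the Tnni3 probe sets were compared: over 11 arrays Pearson's r was 0.096 (permutation p = 0.784) and Spearman's rho 0.0091 (permutation p = 0.99), and r was -0.050 without the 2 arrays farthest from the median. Within the 6 dim arrays r was 0.14 and within the 5 bright ones 0.50, the latter over too few arrays to draw anything from.

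Tnni1, the slow skeletal troponin I of the fetal heart, was a dim probe set with scattered values. J04993_at read 7.67, 8.04, 6.01, 7.06 and 6.73 in young and 5.88, 7.35 and 8.47 (lowest, median and highest) in old. The old arrays enclosed the young ones at both ends, and the difference was 0.089 ± 0.64 (SE, limma adjusted p = 0.978). With an SE of this size, a doubling or a halving of Tnni1 lies within 2 SEs of the measured difference.

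The promoters of the fetal and adult genes compared next are shown, as the 250 bases before the RefSeq start site in assembly GRCr8, each read 5′ to 3′ on its gene's own strand. Capitals mark matches on either strand to 4 short motifs: the CArG box bound by serum response factor, the MCAT core CATTCC bound by TEAD factors, AGATAA bound by GATA factors, and TATAAA. The windows are Acta1 at chr19:68784195-68784444 (minus strand), Actc1 at chr3:121271828-121272077 (minus strand), Tnni1 at chr13:49781279-49781528 (plus strand) and Tnni3 at chr1:78342321-78342570 (plus strand).
Acta1: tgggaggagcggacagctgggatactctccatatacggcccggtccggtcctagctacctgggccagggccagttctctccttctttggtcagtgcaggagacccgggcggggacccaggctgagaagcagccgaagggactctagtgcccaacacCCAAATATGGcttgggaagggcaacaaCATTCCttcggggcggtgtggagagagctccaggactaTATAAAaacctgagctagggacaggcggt
Actc1: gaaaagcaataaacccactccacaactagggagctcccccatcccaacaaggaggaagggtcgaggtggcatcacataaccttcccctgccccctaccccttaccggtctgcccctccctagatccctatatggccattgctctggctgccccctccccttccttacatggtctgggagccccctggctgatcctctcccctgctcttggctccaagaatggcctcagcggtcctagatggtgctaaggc
Tnni1: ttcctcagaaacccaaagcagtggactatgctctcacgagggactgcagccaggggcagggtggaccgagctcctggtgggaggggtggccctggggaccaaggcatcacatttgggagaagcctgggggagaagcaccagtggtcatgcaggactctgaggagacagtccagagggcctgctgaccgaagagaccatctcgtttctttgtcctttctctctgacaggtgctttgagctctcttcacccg
Tnni3: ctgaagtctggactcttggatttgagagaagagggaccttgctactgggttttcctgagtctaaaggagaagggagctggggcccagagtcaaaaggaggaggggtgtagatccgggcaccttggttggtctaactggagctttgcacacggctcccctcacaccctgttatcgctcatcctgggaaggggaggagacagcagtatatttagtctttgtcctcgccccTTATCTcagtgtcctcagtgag
The Acta1 window held a CArG box 94 to 85 bases before the start site, CATTCC at 67 to 62 and TATAAA at 29 to 24, and the matches did not overlap. The Tnni3 window held AGATAA on the opposite strand at 22 to 17 bases, and the Actc1 and Tnni1 windows held no match to these letters. Among 33469 RefSeq windows of the same length, 1.5% held the CArG box, 12.1% CATTCC, 10.3% AGATAA and 12.9% TATAAA. A match is a description of these letters and not a site shown to be bound. The lack of an exact match within 250 bases does not show that a gene lacks such a site.

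Neither fetal gene differed between the ages relative to its adult partner beyond the spread of the arrays. For each array the log2 intensity of the fetal gene's brightest probe set minus that of the adult gene was compared by an exact two-sided permutation test over all splits of the arrays, for which the smallest p is 0.00216, and p-values were adjusted over the 3 gene pairs compared. Such a ratio has no meaning in itself, since the probe sets differ. A change in it shows only that the signals of the probe sets compared changed unequally. Tnni1 over Tnni3 was -7.89, -7.96, -9.9, -9.15 and -8.62 in young and -10.69, -8.67 and -6.49 at the lowest, median and highest in old, so that the old arrays reached beyond the young ones at both ends. The old mean was -8.58 ± 1.56 (SD, n = 6) and the young mean -8.70 ± 0.84 (SD, n = 5), which differ by 0.13 ± 0.74 (SE; exact permutation p = 0.866, adjusted p = 0.948). With the other Tnni3 probe set the difference was 0.50.

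For the actin genes the age difference of the ratio changed sign with the spike-in class in the model. Acta1 over Actc1 was -3.99, -5.44, -4.5, -6.07 and -4.12 in young and -6.93, -5.48 and -3.83 at the lowest, median and highest in old. The 2 old arrays of the dim class lay with the dim young arrays, at -4.05 and -3.83, and the bright young array lay among the bright old ones, while 1 dim array, young replicate 2, lay within the bright range. The old mean was -5.33 ± 1.22 (SD, n = 6) and the young mean -4.82 ± 0.90 (SD, n = 5), which differ by -0.51 ± 0.64 (SE; exact permutation p = 0.455, adjusted p = 0.948). With the spike-in class in the model the difference turned to 0.37 (adjusted p = 0.58 by exact permutation within classes), and it was 0.57 among the dim and 0.039 among the bright arrays, the latter with 1 young array. Tpm3 over Tpm1, a pair of tropomyosin genes, differed by 0.034 ± 0.53 (SE; exact permutation p = 0.948, adjusted p = 0.948). Over the 25 combinations of their probe sets this value ran from -1.82 to 2.32, with 16 above and 9 below 0, so its sign depended on which probe sets were read.

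**Figure D2:**
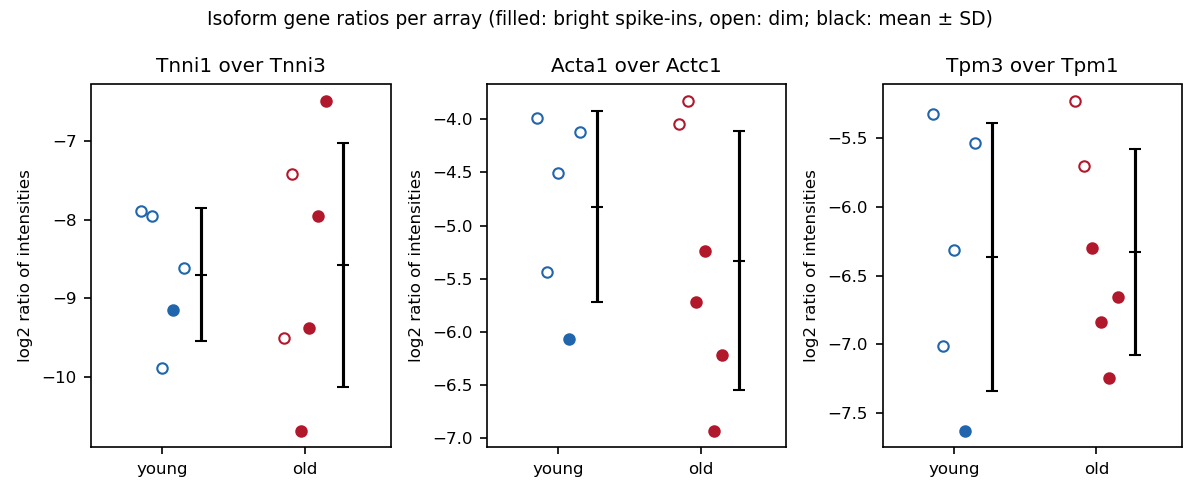
Log2 ratio of the brightest probe sets of Tnni1 over Tnni3, Acta1 over Actc1 and Tpm3 over Tpm1 on each array, by age, with the mean and SD in black. Filled points are arrays of the bright spike-in class and open points those of the dim class; in the middle panel the bright arrays lie at -5.24 or lower at both ages.

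Acta1 itself, the skeletal alpha-actin, was read by J00692_at at 12.19, 11.13, 12.18, 10.8 and 11.8 in young and at 10.15, 11.79 and 12.43 (lowest, median and highest) in old. The highest and the lowest array were both old. The difference was -0.092 ± 0.40 (SE, limma adjusted p = 0.973), and its sign turned in 11 of 26 alternatives, so no direction is given for it. Actc1, the alpha-actin of adult heart, was read by rc_AA866452_s_at at 16.18, 16.57, 16.68, 16.86 and 15.92 in young and at 16.11, 17.08 and 17.39 in old. Old replicates 3 to 6 lay above every young array and old replicates 1 and 2 lay among them. The difference of 0.42 ± 0.36 (SE, limma adjusted p = 0.805) became 0.029 ± 0.33 with the spike-in class in the model and -0.16 ± 0.22 after quantile normalization.

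The 4 probe sets annotated to both Acta2, the smooth muscle alpha-actin, and Actc1 pointed in different directions. The brighter set of the first pair, rc_AI104567_g_at, read 14.93, 15.3, 14.94, 15.83 and 15.06 in young and 15.42, 15.86 and 16.51 (lowest, median and highest) in old. The young mean was below every old array, and young replicate 4, of the bright class, lay within the old range. Its difference was 0.70 ± 0.33 (SE, limma unadjusted p = 0.0491, adjusted p = 0.66), and including the class it was 0.36 ± 0.32. Its dimmer partner rc_AI104567_at differed by -0.11 ± 0.61, and the sets of the second pair by -0.31 ± 0.32 (X80130cds_f_at, with 6 of 6 old arrays below the young mean) and -0.16 ± 0.37 (X80130cds_i_at). Which of the actin genes these probe sets read cannot be told apart from the annotation. The smooth muscle markers, of which 8 of 11 were on the array and 6 tested, were higher in old for 5 of the 6, beside 1593 of all 3206 tested genes. Their summed intensity ran from 1338 to 20062 in old and from 2177 to 4095 in young. Their part in the values of these probe sets was not tested.

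Tpm1, the main tropomyosin of heart muscle, had 5 probe sets, and these disagreed on the sign of the age difference. M34134_s_at, the brightest, read 16.26, 17.46, 16.74, 16.91 and 15.89 in young and 16.08, 16.65 and 17.18 (lowest, median and highest) in old. Both extremes were young arrays, and the difference was -0.0036 ± 0.37 (SE, limma adjusted p = 0.997). X02412_at read 15.23, 15.69, 15.12, 14.24 and 14.37 in young and 13.54, 15.01 and 15.45 in old, with old replicate 6 lowest. It differed by -0.13 ± 0.37 (SE, limma adjusted p = 0.953). M15474cds_s_at read 15.33, 14.97, 16.11, 14.48 and 15.3 in young and 13.37, 14.72 and 15.22 in old. The young mean exceeded every old array, but young replicates 2 and 4 lay within the old range. The difference of -0.70 ± 0.36 (SE, unadjusted p = 0.0687, limma adjusted p = 0.661) kept its sign in all 26 alternatives, from -0.99 to -0.20, and was -0.31 ± 0.35 with the spike-in class in the model.

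M60666_s_at, a dimmer Tpm1 probe set, was the single member with an unadjusted p under 0.05, and it ran the other way. It read 8.6, 6.53, 8.36, 8.1 and 8.58 in young and 8.44, 9.03 and 10.26 (lowest, median and highest) in old. Each of the 6 old arrays exceeded the young mean, and old replicates 1 and 2 lay within the range of the young arrays. The old mean was 9.22 ± 0.79 (SD, n = 6) and the young mean 8.03 ± 0.87 (SD, n = 5). The difference of 1.18 ± 0.51 (SE) is 2.27-fold on the linear scale (unadjusted p = 0.0302, limma adjusted p = 0.581). It stayed above 0 in all 26 alternatives, from 0.43 in the dim arrays alone to 1.5 in the bright ones. With its SE the former is 0.43 ± 0.63, and with array weights it was 0.57 ± 0.42. It was 0.81 without young replicate 2, the lowest array, and was 0.71 without the 2 old arrays of high GAPDH ratio, which read highest. Tropomyosin genes make several proteins by choosing exons, and a probe set reads only the transcripts that hold its exons. Which transcripts of Tpm1 each set reads is not given in the sources used here. Between the 4 tested sets of Tpm1, Pearson's r over the 11 arrays ran from -0.50 to 0.23 in 6 pairs, with 2 above 0. Within the spike-in classes some pairs had quite other values, given as a description over 6 dim and 5 bright arrays. M34134_s_at and X02412_at, at 0.23 over all arrays, had r = 0.75 in the dim and 0.65 in the bright class. M34134_s_at and M60666_s_at, at -0.11 over all arrays, had r = -0.90 in the dim and 0.21 in the bright class, and X02412_at and M60666_s_at, at -0.19, had -0.62 and 0.77. The remaining 3 pairs, all with M15474cds_s_at, ran from -0.15 to 0.32 in the dim and from -0.51 to -0.11 in the bright class. Over all 21 pairs of probe sets that share a gene, 0 passed a permutation test of r at an adjusted p of 0.05.

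**Figure D3:**
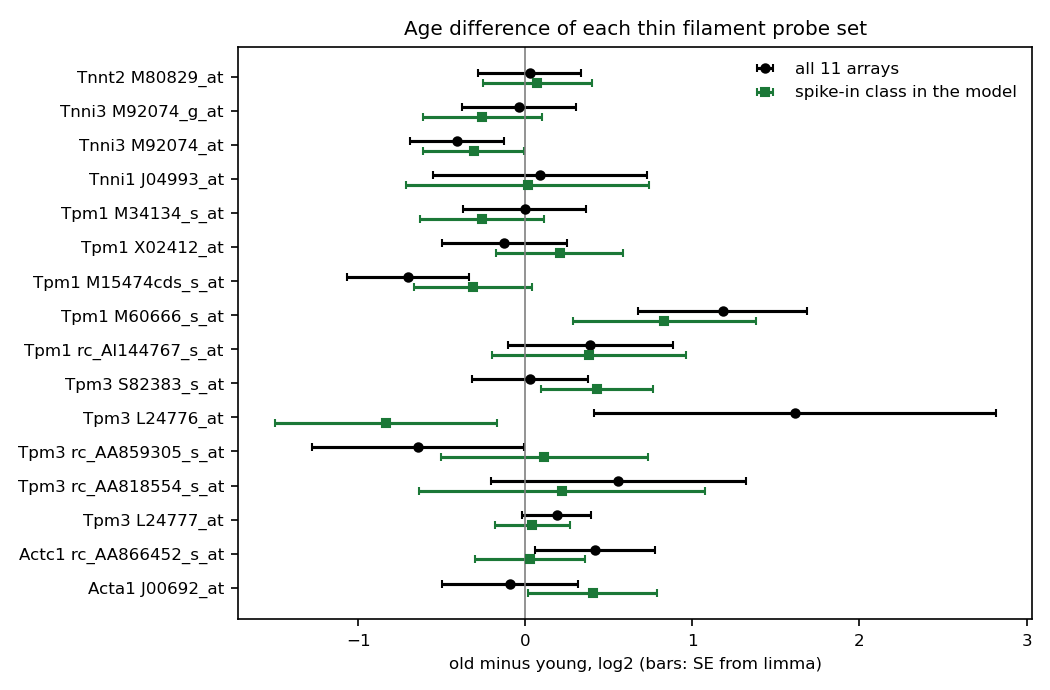
Old minus young log2 difference of the 16 thin filament probe sets with limma's SE, from all 11 arrays (black circles) and with the spike-in class in the model (green squares). For Tpm1 the values run from -0.70 to 1.18, and L24776_at of Tpm3 moves from 1.61 to -0.84 once the class is in the model.

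Tpm3, a tropomyosin of slow muscle and of the cytoskeleton, had the member probe set with the widest spread, and its values divided by spike-in class. L24776_at read 6.61, 9.27, 7.91, 11.9 and 6.52 in young and 5.71, 11.22 and 14.05 (lowest, median and highest) in old. By age the groups overlapped, and the difference was 1.61 ± 1.20 (SE, limma adjusted p = 0.774). By spike-in class they were not: the 5 bright arrays read 10.99 to 14.05 and the 6 dim ones 5.71 to 9.27, whichever their age. The means were 11.97 ± 1.21 (SD, n = 5) in the bright and 7.11 ± 1.27 (SD, n = 6) in the dim class. With age in the model the bright class was higher by 5.25 ± 0.66 (SE, limma adjusted p = 0.00115), and by unadjusted p L24776_at ranked 1 of 5244 tested probe sets. Of all tested probe sets, 0.42% both passed and were higher in the bright class. Why the class and this probe set move together was not tested. With the class in the model the age difference of L24776_at turned to -0.84 ± 0.66 (SE, limma adjusted p = 0.939). The comparison of classes was added after these values were seen, and 4 of the 5 bright arrays are old.

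The other members were set against the class in the same fit. At limma's adjusted p under 0.05, L24776_at was the only 1 of 14 tested members that passed, beside 1.22% of all tested probe sets. At an unadjusted p under 0.05 there were 6 of 14, beside 13.3% of all tested probe sets, and the classes did not overlap for 3 of 14, beside 3.62%. The 3 were L24776_at, Actc1 and M15474cds_s_at of Tpm1. Actc1 was higher in the bright class by 0.83 ± 0.33 (SE, limma adjusted p = 0.264), with bright arrays at 16.86 to 17.39 and dim ones at 15.92 to 16.68. M15474cds_s_at was lower by -0.83 ± 0.35 (SE, limma adjusted p = 0.306), with bright arrays at 13.37 to 14.76 and dim ones at 14.87 to 16.11. Acta1 had a bright minus dim value of -1.06 ± 0.39 (SE, limma adjusted p = 0.212). These values did not pass, and since the class holds mostly old arrays, age and class are only partly separable in each of them.

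**Figure D4:**
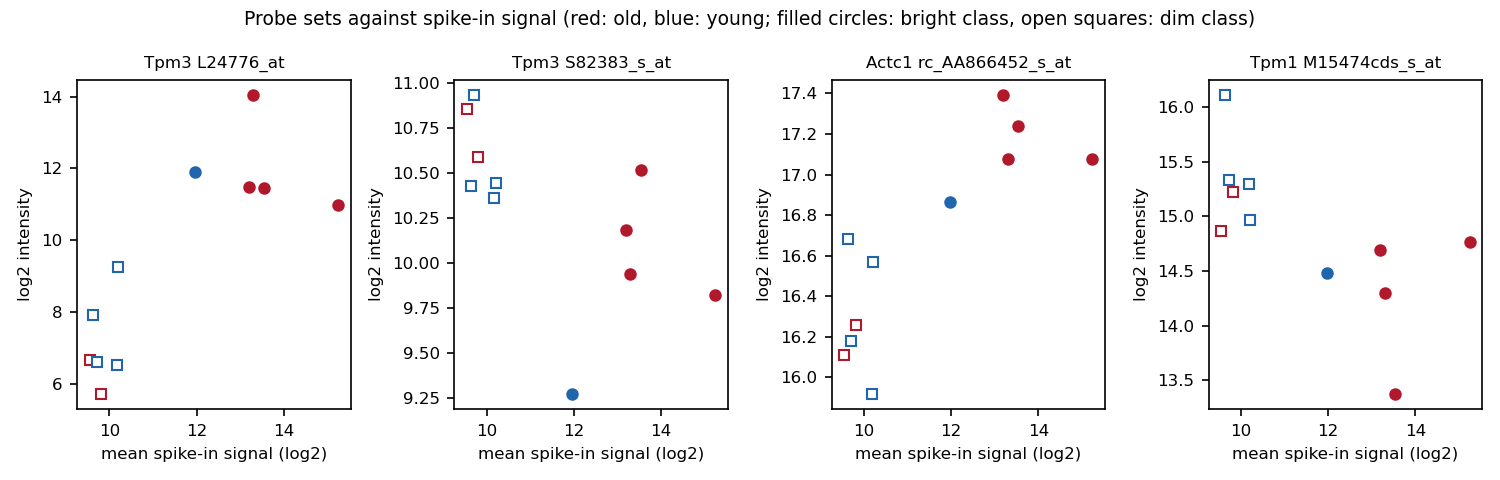
Log2 intensity of L24776_at and S82383_s_at of Tpm3, Actc1 and M15474cds_s_at of Tpm1 against the mean log2 signal of 9 bacterial spike-in probe sets, 1 point per array, red for old and blue for young. Filled circles are the bright class and open squares the dim class; the classes do not overlap for L24776_at, Actc1 and M15474cds_s_at.

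The remaining Tpm3 probe sets differed among themselves in the sign of the class value, and none of those tested passed for it. S82383_s_at, the brightest, read 10.93, 10.45, 10.43, 9.27 and 10.36 in young and 9.82, 10.35 and 10.86 in old, a difference of 0.030 ± 0.35 (SE, limma adjusted p = 0.987). Young replicate 4, the bright young array, was its lowest, and its bright minus dim value was -0.86 ± 0.34 (SE, limma adjusted p = 0.26), opposite in sign to that of L24776_at. rc_AA859305_s_at read 8.99, 8.39, 8.42, 6.79 and 8.77 in young and 5.99, 7.59 and 9 in old, and differed by -0.64 ± 0.63 with age and by -1.61 ± 0.62 with class. rc_AA818554_s_at read 5.82, 6.41, 8.51, 9.05 and 5.57 in young and 5.64, 7.85 and 9.49 in old, and differed by 0.56 ± 0.76 with age and by 0.72 ± 0.86 with class, the sign of L24776_at. L24777_at, which was not tested, had a bright minus dim value of 0.31 ± 0.22, also of that sign. S82383_s_at and rc_AA859305_s_at moved together over the 11 arrays more than any other pair that shares a gene. Pearson's r was 0.77 (permutation p = 0.00398, adjusted p = 0.0827) and Spearman's rho 0.76 (permutation p = 0.00864, adjusted p = 0.0907), with r at 0.76 without the 2 farthest arrays, 0.68 within the 6 dim arrays and 0.51 within the 5 bright ones. No pooled r is given for L24776_at, whose arrays fall into separate clusters.

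Other genes of the thin filament and of actin assembly gave no call with age either. Of 50 genes listed, 29 were on the array and 23 tested, of which 12 were higher and 11 lower in old, with a median difference of 0.032 beside -0.0053 over all 3206 tested genes. None of the 23 had an unadjusted limma p under 0.05, beside 220 of all 3206 genes, and 0 had an adjusted p under 0.05. The 3 with the smallest p were Limk2, a kinase that keeps cofilin inactive, at -1.28 ± 0.65 (SE, limma adjusted p = 0.661), Cap1, which recycles actin monomers, at -1.17 ± 0.69 (SE, limma adjusted p = 0.708), and Tnnt3, the fast skeletal troponin T, at 1.01 ± 0.60 (SE, limma adjusted p = 0.716). Tmod1, which caps the pointed end of the thin filament, differed by -0.16 ± 0.41 and Actn2, the alpha-actinin that anchors its other end in the Z-disc, by -0.41 ± 0.27. The skeletal fast troponins Tnni2 and Tnnc2 were too dim to be tested.

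**Figure D5:**
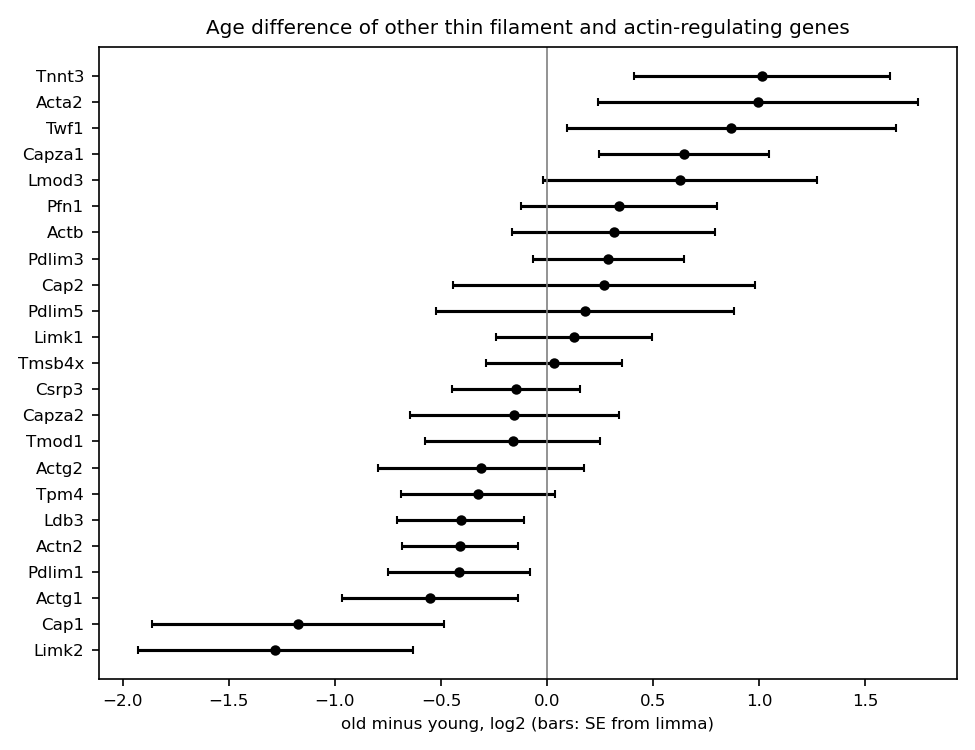
Old minus young log2 difference with limma's SE for the 23 tested genes of the thin filament and of actin assembly that are no members, ordered by size. The values run from -1.28 (Limk2) to 1.01 (Tnnt3) with 12 above and 11 below 0.

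Levels of other muscle genes are given beside the members. For comparison with the counts below, 1593 of all 3206 tested genes were higher in old and 1613 lower. Such counts depend on the scaling: the share of tested probe sets higher in old was 49.4% in the main setting and 31.4% after median centring. The cardiac muscle markers were lower in old for 9 of 12 tested genes, with a median difference of -0.33 and a summed intensity over 13 of 17 listed genes of 296210 to 455793 in old and 333791 to 523305 in young. The skeletal muscle markers, which bear on Acta1 and Tnni1, were higher in old for 7 of 9 tested genes, and their summed intensity over 17 of 20 listed genes ran from 4004 to 7708 in old and from 3321 to 5851 in young. No listed marker of either kind lay at the floor on all arrays. The blood and macrophage markers were higher in old for 6 of 6 tested genes (6 of 12 listed were on the array), with summed intensities of 56200 to 234398 in old and 3898 to 114275 in young. Fibroblast markers were higher in old for 6 of 10 tested genes, with summed intensities of 37054.4 to 80992.5 in old and 48052.4 to 110681 in young. The 4 lower in old were Sparc at -1.18 ± 0.43, Col3a1 at -0.91 ± 0.48, Col1a1 at -0.74 ± 0.49 and Col1a2 at -0.22 ± 0.34 (SE). Endothelial markers were lower in old for 3 of 3. Among all listed markers, 3 had age groups that did not overlap, beside 0.973% of all tested probe sets. Of the 12 tested cardiac markers it was Ckm, the muscle creatine kinase, at -0.67 ± 0.30 (SE, limma adjusted p = 0.614). Of the 10 tested fibroblast markers they were Lum, a matrix proteoglycan, at 1.19 ± 0.37 (SE, limma adjusted p = 0.537), and Pdgfra, a fibroblast receptor, at 0.60 ± 0.31 (SE, limma adjusted p = 0.661). The part of these markers in the values of the members was not tested.

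By their pattern over the 11 arrays, each member's brightest probe set had the following closest genes by Pearson's r, given as a description. Tnnt2 was closest to Suox (r = 0.94), Stmp1 (r = 0.88) and Jag1 (r = 0.87). Tnni3 was closest to Or10al7 (r = 0.92), Tgfbrap1 (r = 0.89) and Dbnl (r = 0.89), and Tnni1 to Slc25a10 (r = 0.91), Slc16a3 (r = 0.83) and Dctn1 (r = 0.80). Tpm1 was closest to Shox2 (r = 0.94) and Epn2 (r = 0.93), followed by the calcium pump gene Atp2a2 (r = 0.89). Tpm3 was closest to Lims1 (r = 0.96), Pdha1 (r = 0.93) and Pkia (r = 0.90). Actc1 was closest to Rfk (r = 0.95), Ptprs (r = 0.93) and Scarb2 (r = 0.93), and Acta1 to RT1-CE16 (r = 0.94), Ube2g1 (r = 0.94) and Sri (r = 0.92). No member was among the 3 closest genes of another member.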

How the data were processed

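Total RNA of rat ventricle was measured on 11 arrays. The deposited table holds 1 linear intensity per probe set and array, from 0.2 to 307756. A scaling of each array to a common level is inferred from the values. For software, background correction and detection calls the sources used here give nothing. The deposited scaling was kept, values were raised to the 20th percentile (47.4) and put on the log2 scale, and 59 controls and probe sets under the 40th percentile of mean log2 value were left out, leaving 5244. The age groups were tested with limma 3.58.1 in R 4.3.3 (lmFit, eBayes with trend, Benjamini-Hochberg, threshold 0.05). Gene pairs were compared by exact two-sided permutation, and correlations by 100000 permutations. Symbols came from GEO's platform annotation: 7006 probe sets had 1 symbol, 308 several and 1426 none, and 6985 of the single symbols matched RefSeq's GRCr8 table, with 0 changed. Promoters are RefSeq's, and 7 of the 7 measured genes matched.

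The members and gene lists were chosen with earlier results of these data known. Every member probe set is named, as are the 3 genes most like each member and markers whose age groups do not overlap. Of the partner genes, the 3 of smallest p are named when none has an unadjusted p under 0.05. Tmod1, Actn2, Tnni2, Tnnc2, Myl2, Myl7, Ryr2 and Ttn were named after their values were seen. The same holds for Sparc, Col3a1, Col1a1 and Col1a2. Limma was tested on simulated data in 5 runs over 5244 probe sets. Alternatives were other floors, filters, normalizations and spread models, a replicate block, the spike-in class or signal, leaving out arrays, and the mean of a gene's probe sets; the class comparison and the promoter motifs were chosen after the values were seen. The number of arrays limits the precision.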

Additional observations from a re-analysis of the deposited data

Results flagged for a closer look

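Of 38 groups of arrays examined (16 probe sets and 3 gene ratios, each in old and young), 6 had an array far from the others of its group by Dixon's criterion, which chance alone meets in about 1 of 20 groups. In M60666_s_at of Tpm1, young replicate 2 read 6.53 and the next young array 8.10. In rc_AA859305_s_at of Tpm3, young replicate 4 read 6.79 and the next 8.39. The other 4 were in the probe sets that lie mostly at the floor, where a single reading above it stands apart: in rc_AI144767_s_at of Tpm1, old replicate 6 read 8.39 and young replicate 5 read 6.79, and in L24777_at of Tpm3, old replicate 6 read 6.67 and young replicate 4 read 5.81.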

How the results depend on the processing

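No alternative brought a member past the threshold: 0 member probe sets passed under all 27. Over all probe sets, 0 passed in the main setting, 5 among the bright arrays alone, 1 among the dim arrays alone, and 0 to 2 when each array was left out, the 2 without old replicate 5. The main scaling left 49.4% of tested probe sets higher in old (median difference -0.010), quantile normalization 42.4% (-0.11) and median centring 31.4% (-0.29). The differences of M92074_at, M15474cds_s_at and M60666_s_at kept their sign under all alternatives; those of every other tested member turned under at least 1, and the cause was not tested. By quantile normalization Tnnt2 was at -0.088, Tnni1 at -0.11, Actc1 at -0.16, Acta1 at 0.019 and Acta1 over Actc1 at 0.18; by median centring Tnnt2 was at -0.26, Tnni1 at -0.20 and S82383_s_at at -0.26. With array weights Tnni1 was at -0.040, M34134_s_at at 0.024, X02412_at at 0.085, S82383_s_at at -0.0051 and Acta1 at 0.010. With the replicate block 0 probe sets passed, and M92074_g_at was at 0.12, Tnni1 at -0.17, M34134_s_at at 0.030, X02412_at at 0.13, Acta1 at 0.042 and Tnni1 over Tnni3 at -0.29. The deviations of same-numbered arrays had correlations of -0.25 to 0.25, the highest for replicate 1. Whether such arrays share more than a number cannot be told from this. Blocking on spike-in class, X02412_at was at 0.21, L24776_at at -0.84, rc_AA859305_s_at at 0.11, Acta1 at 0.40 and Acta1 over Actc1 at 0.37. With the spike-in signal as a covariate Tnni1 was at -0.21, X02412_at at 0.36, L24776_at at -1.06, rc_AA859305_s_at at 0.19, Actc1 at -0.022, Acta1 at 0.52, Tnni1 over Tnni3 at -0.063 and Acta1 over Actc1 at 0.55. In the dim arrays alone Tnnt2 was at -0.078, Tnni1 at -0.11, X02412_at at 0.12, L24776_at at -1.39, Actc1 at -0.15, Acta1 at 0.42 and Acta1 over Actc1 at 0.57. In the bright arrays alone, whose single young array is assumed to vary like the old ones, X02412_at was at 0.36, rc_AA818554_s_at at -1.53, Acta1 at 0.37 and Acta1 over Actc1 at 0.039. Without the arrays of high GAPDH ratio Tnnt2 was at -0.087. Leaving out each array gave -0.093 to 0.15 for Tnnt2, -0.20 to 0.12 for M92074_g_at, -0.18 to 0.35 for Tnni1, -0.19 to 0.20 for M34134_s_at, -0.30 to 0.13 for X02412_at, -0.22 to 0.19 for S82383_s_at, -0.30 to 0.19 for Acta1, -0.29 to 0.55 for Tnni1 over Tnni3, -0.82 to -0.19 for Acta1 over Actc1 and -0.28 to 0.29 for Tpm3 over Tpm1. The bright minus dim difference of L24776_at ran from 4.8 to 5.81 over 21 alternatives and passed in all of them (largest limma adjusted p = 0.0243).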
